A study of Mus musculus with 6 samples.

Results

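The genes described here are 10 genes of the piRNA pathway of germ cells: Piwil2, Mael, Mov10l1, Tdrd1, Tdrd5, Tdrd12, Tdrkh, Asz1, Gtsf1 and Ddx4. They were listed by name as genes of the pathway; the rule uses no measured value, but the list was drawn up with earlier results of these data known. All 10 were found among the 19571 genes of the table, each with a p-value. The series compares RNA of mouse E14 embryonic stem cells, a feeder-independent line, in 2 genotypes: 3 samples labelled Dot1L-/- (called Dot1l KO below), in which Dot1l was disrupted by CRISPR/Cas9, and 3 samples labelled wild type (WT). All 6 were grown in serum with LIF and carry the age label day 14, with no starting point given. The number of knock-out clones is not given either, nor whether replicates were separate cultures, so the p-values cover only the spread among these libraries, which may be technical.

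Piwi-interacting RNAs (piRNAs) are small RNAs of germ cells that guide Piwi proteins of the Argonaute family to transcripts of transposable elements (TEs). Long precursor transcripts are bound by an RNA helicase, cut at the outer mitochondrial membrane, loaded on a Piwi protein, trimmed and methylated at the end, while Tudor-domain proteins hold the Piwi proteins in granules of the cytoplasm called nuage. In the fetal testis the pathway cuts TE RNA and directs DNA methylation to TE promoters, and somatic cells keep most of its genes silent. Dot1l encodes the methyltransferase of a lysine in the core of histone H3 that is marked along transcribed genes.

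The tables used here give the authors' comparison of the genotypes and no values per sample, so the level of each gene in a single library, and its depth, is unknown. No header says for which genotype a positive fold change stands. A positive value is read here as higher in Dot1l KO, from published work on the retrovirus MERVL in such cells, and with the opposite sign all directions below would turn, and the levels and ranks given for WT and Dot1l KO would change places. Dot1l itself does not settle this: its log2 fold change in the authors' deposited table was -0.16 ± 0.25 (SE) with a DESeq2 adjusted p = 0.845. Of 10 stem cell markers, 0 passed the authors' DESeq2 test at an adjusted p under 0.05, and 1 was higher and 1 lower at an unadjusted p under 0.05. Among all genes tested, 5.34% were called higher and 1.25% lower, so 0 calls in 10 is near that share and says little about these markers. The lowest p-values of these markers in the authors' deposited table belonged to Lin28a at -0.64 ± 0.29 (adjusted p = 0.226) and Tdgf1 at 0.46 ± 0.23 (adjusted p = 0.284). Their summed implied level (mean of a genotype, from the mean and the fold change) was 201658 normalized counts in WT and 200675 in Dot1l KO, so stem cell transcripts were abundant on both sides.

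Of the 10 piRNA genes, 9 rose in Dot1l KO, 0 fell and 1, Tdrd12, did not pass the test. Among all 19564 genes tested, 5.34% rose and 1.25% fell, and among the 9147 genes whose mean count lay within the range of the 10 genes (41.7 to 1594 normalized counts), 6.30% rose and 1.50% fell. The median log2 fold change of the 10 genes was 1.83, against -0.02 over all genes tested and -0.04 over genes in that range of means. The 9 genes that rose did so at very different strengths, from 2.45-fold for Tdrd5 to 83.1-fold for Asz1, with WT set to a floor given below. In RNA from whole cultures, more cells that carry a transcript and more of it per cell cannot be told apart. With Bonferroni adjustment over all genes, 5 of the 10 were called, namely Mael, Mov10l1, Tdrkh, Asz1 and Gtsf1, beside 1.41% of all genes that were then called higher.

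**Figure D1:**
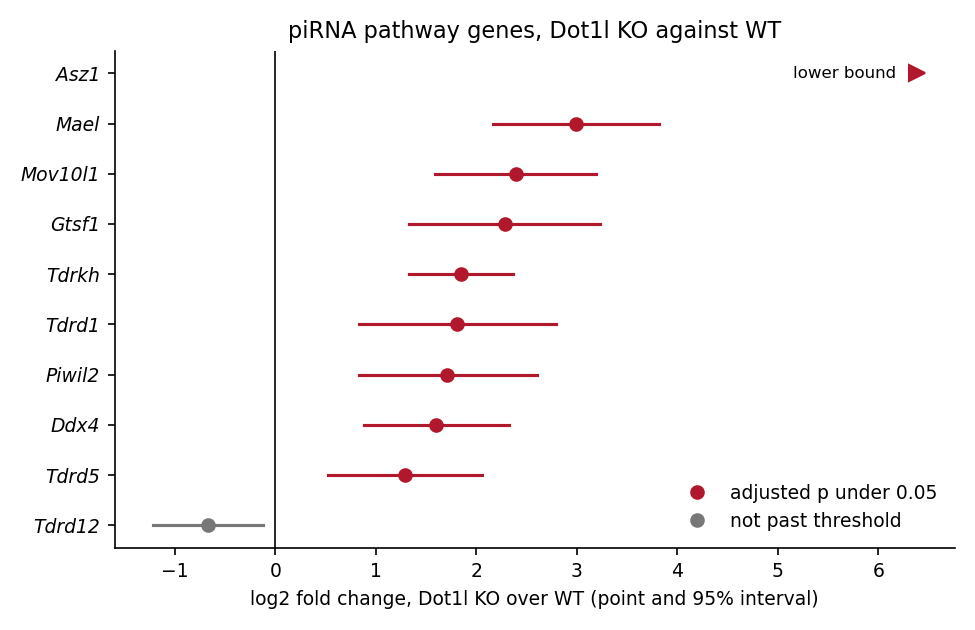
Log2 fold change of each piRNA gene, Dot1l KO over WT (horizontal axis), with its 95% interval computed from the authors' standard error. Red points passed an adjusted p of 0.05. Asz1 is drawn as a triangle at 6.38, marked as lower bound: its Dot1l KO level over the floor set for WT, without error. The intervals of 8 genes lie above 0, from Tdrd5 at 1.29 to Mael at 2.99, and Tdrd12 alone lies below 0.

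Because 9 of the genes moved together, their promoters were set side by side. RefSeq promoter windows (GRCm38.p6, the assembly behind mm10) were found for 9 of the 10 genes, all but Piwil2, and the 250 bases before the start were read, taking the start farthest upstream where a gene had several. The hexamer CACGTG, the palindromic E-box that Max binds with partners such as Mga, was present in 4 of the 9 windows and in 6.04% of all 27019 promoter windows, 8.24% of the 12881 windows of tested genes and 10.0% of those with a CpG-rich promoter. It is shown here in capitals within 30 bases on the strand of the gene, since it is the stretch these 4 windows share.
Mael, chr1:166238950-166238979, minus strand: taccaggcctacCACGTGacaatccccgcc
Mov10l1, chr15:88982744-88982773, plus strand: ccttCACGTGctaaccgccaacctctcgtg
Tdrd1, chr19:56826186-56826215, plus strand: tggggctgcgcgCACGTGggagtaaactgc
Ddx4, chr13:112652322-112652351, minus strand: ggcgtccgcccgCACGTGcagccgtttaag
The hexamer began 223 bases before the RefSeq start in Mael, 246 in Mov10l1, 11 in Tdrd1 and 29 in Ddx4. GCGGGA, the core of many E2F sites, searched on both strands as GCGGGA and TCCCGC, was found in 3 of the 9 windows (Mael, Tdrd5 and Ddx4), in 16.9% of all windows and in 28.6% of those of tested genes, or 38.5% of tested genes with a CpG-rich promoter as defined below, so its share among the 9 is near that of comparable genes. Mael and Ddx4 held both motifs, without overlap, and 1.47% of all windows held both. Among the 3687 windows of tested genes with GCGGGA, 9.30% also held CACGTG. The share with both among CpG-rich promoters was not computed. Of the 1061 tested genes with a CACGTG 5.84% rose, against 5.35% of the 11820 without it; that difference was not tested.

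The promoters differed more in CpG content, the dinucleotide at which DNA is methylated. The ratio of observed to expected CpG was at least 0.6, a usual limit for CpG islands, in 6 of the 9 windows: 1.14 in Tdrd5, 1.00 in Ddx4, 0.92 in Tdrkh, 0.90 in Asz1 and 0.75 in both Mael and Mov10l1. All 6 of these genes rose, whereas 3.06% of the 7775 tested genes with such a promoter did, against 8.93% of the 5106 tested genes below the limit. Tdrd1 had a ratio of 0.53 and Gtsf1 one of 0.38, and both rose. Tdrd12, the gene that did not rise, had the lowest ratio, 0.24, with 5 CpG in its window, which is 1 of 2 listed for it. Among the genes that rose, Tdrd5, with the highest ratio, had the weakest rise, at a log2 fold change of 1.29. The windows of Asz1, with the strongest rise, and of Tdrd12 are printed with each CpG in capitals to show this contrast, cut where the annotated transcript begins.
Asz1, chr6:18109062-18109311, minus strand: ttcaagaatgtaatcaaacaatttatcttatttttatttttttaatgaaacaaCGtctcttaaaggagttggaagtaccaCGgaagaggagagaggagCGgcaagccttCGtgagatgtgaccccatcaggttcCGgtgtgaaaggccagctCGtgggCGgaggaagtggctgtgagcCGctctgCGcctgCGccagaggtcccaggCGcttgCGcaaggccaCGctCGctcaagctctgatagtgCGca
Tdrd12, chr7:35537746-35537994, minus strand: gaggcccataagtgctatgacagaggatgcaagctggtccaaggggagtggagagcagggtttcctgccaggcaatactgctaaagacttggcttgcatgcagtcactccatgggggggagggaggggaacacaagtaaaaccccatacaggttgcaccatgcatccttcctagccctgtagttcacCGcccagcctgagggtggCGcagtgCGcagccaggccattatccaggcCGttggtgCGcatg
Asz1 carries 15 CpG in 250 bases, spread over most of the window, and Tdrd12 carries its 5 in the part next to the start. DNA methylation was not measured in the files used here.

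Piwil2 (chromosome 14, 70372477 to 70429383, GENCODE M21 on GRCm38) encodes MILI, the Piwi protein that receives most piRNAs of the fetal testis. From the mean over all libraries and the fold change, its implied level was 741 normalized counts in WT and 2429.9 in Dot1l KO, taking the groups as equal in size. The authors' deposited table gives it a log2 fold change of 1.71 ± 0.45 with adjusted p = 0.00465. Its 95% interval of 0.83 to 2.60 corresponds to a rise of 1.78-fold to 6.05-fold. Transcripts of Piwil2 were thus present in the WT cultures already.

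Mov10l1 (chromosome 15, 88982909 to 89055152) encodes the RNA helicase that binds piRNA precursors, the first step of the pathway. Its implied level went from 342 normalized counts in WT to 1795 in Dot1l KO, a 5.24-fold rise. The authors' deposited table has 2.39 ± 0.41 for it on the log2 scale, adjusted p = 7.31e-07. Among the 10 genes, only Mael and Asz1 had a larger fold change; the intervals of Mov10l1, 1.59 to 3.19, and of Mael overlap, so the order of these 2 is not settled.

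Mael (chromosome 1, 166201201 to 166238747) encodes Maelstrom, a nuage protein with an HMG-box needed for silencing of LINE elements in the male germ line. It stood at 159 normalized counts in WT and 1264 in Dot1l KO by the implied levels. With a log2 fold change of 2.99 ± 0.42 and adjusted p = 4.52e-10 as listed in the authors' deposited table, it had the smallest p of the 10 genes. The rise was 7.95-fold with an interval of 4.48-fold to 14.1-fold.

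Ddx4 (chromosome 13, 112598333 to 112652475) encodes the DEAD-box helicase Vasa, the classical nuage and germ cell marker. Gtsf1 (chromosome 15, 103402405 to 103430470) encodes a small zinc finger protein that assists Piwi proteins in cutting their targets. The implied level of Ddx4 was 325 normalized counts in WT and 983 in Dot1l KO, and the authors' deposited table lists its log2 fold change as 1.60 ± 0.37 with adjusted p = 0.000606. Gtsf1 went from 48.5 to 235 normalized counts, with 2.28 ± 0.48 and adjusted p = 0.000152 as listed in the authors' deposited table. Transcripts of both genes were thus present in WT and higher in Dot1l KO.

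Asz1 (chromosome 6, 18050964 to 18109061) encodes GASZ, an ankyrin-repeat protein of the outer mitochondrial membrane that anchors the nuage between mitochondria. It was the gene without detectable reads in WT: its fitted WT level was 0.187 normalized counts, the lowest step of levels in the table, taken as a group with 0 reads. The level in Dot1l KO was 83.1 normalized counts. With WT set to a floor of 3 reads over the group, or 1 normalized count per library, the Dot1l KO level was 83.1-fold higher. This value, marked as the lower bound in the figures, leaves out the error of the Dot1l KO level. For Asz1 the authors' deposited table gives 8.79 ± 1.36 on the log2 scale with DESeq2 adjusted p = 2.06e-08. The 95% interval of 6.13 to 11.46, or 70.0-fold to 2817-fold, reaches below the floor-based value. Such a lowest step was reached by 104 genes in WT and 0 in Dot1l KO; the library depths behind this are unknown.

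Tdrkh (chromosome 3, 94413273 to 94434668) encodes the Tudor and KH domain protein TDRD2, which sits on mitochondria and brings Piwi proteins to the trimming enzyme. It had the smallest standard error of the 10 genes. Implied levels were 178 normalized counts in WT and 639.5 in Dot1l KO, and the authors' deposited table reports 1.85 ± 0.26 with adjusted p = 4.96e-10. Its exons share 2255 bases with those of Oaz3, a testis antizyme gene on the opposite strand. No source used here says how strand was treated in counting, so reads of the 2 genes cannot be told apart, and Oaz3 has no row in the table used here.

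Tdrd1 (chromosome 19, 56826209 to 56870012) encodes a scaffold with several Tudor domains that binds methylated arginines of MILI. Tdrd5 (chromosome 1, 156255296 to 156303664) encodes a Tudor protein that binds piRNA precursors and is needed for the chromatoid body of spermatids. Tdrd1 had implied levels of 45.2 normalized counts in WT and 159 in Dot1l KO, and a log2 fold change of 1.81 ± 0.50 with adjusted p = 0.00790 as listed in the authors' deposited table. For Tdrd5 the levels were 120.5 and 295, and the authors' deposited table has 1.29 ± 0.39 with adjusted p = 0.0209. Tdrd5 was the weakest of the 9 rises and the one that did not pass a threshold of 0.01. It shares 176 exon bases with an antisense transcript, 4930518J20Rik.

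Tdrd12 (chromosome 7, 35469098 to 35537745) encodes a Tudor protein with a helicase domain that takes part in the loading of piRNAs on the Piwi protein of the nucleus; RefSeq also lists it under the older name ECAT8. Its implied level was 1957 normalized counts in WT and 1231 in Dot1l KO, the reverse order of the other 9 genes. The authors' deposited table gives -0.67 ± 0.28 with an unadjusted p = 0.0165 and adjusted p = 0.156, so a fall was not called. The interval of -1.22 to -0.12 does not overlap that of any other of the 10 genes, the nearest being Tdrd5 with 0.52 to 2.06. A pseudogene inside its span, Gm18558, shares no exon bases with it.

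Levels of different genes were compared per kb of exon (all annotated exons of a gene merged). Tdrd12 was the most abundant of the 10 genes in WT, with 451 normalized counts per kb, above 78.7% of all genes. It was followed in WT by Piwil2 with 140.2, Ddx4 with 108, Mael with 91.7 and Mov10l1 with 81.8 per kb, near or above the median of all genes in WT, 75.6 per kb. Gtsf1 at 34.9, Tdrkh at 28.9, Tdrd5 at 17.4 and Tdrd1 at 8.31 normalized counts per kb lay below that median, and Asz1 was without reads. In Dot1l KO, Mael came first with 729 normalized counts per kb, above 87.9% of all genes, ahead of Piwil2 with 459.6, Mov10l1 with 429, Ddx4 with 326 and Tdrd12 with 284. Gtsf1 reached 169 and Tdrkh 104 per kb, past the median of all genes in Dot1l KO, 78.5 per kb, while Tdrd5 at 42.5, Asz1 at 29.4 and Tdrd1 at 29.2 stayed below it. These levels carry no error per genotype, so neighbours in the order, such as Asz1 and Tdrd1 in Dot1l KO, cannot be ranked.

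**Figure D2:**
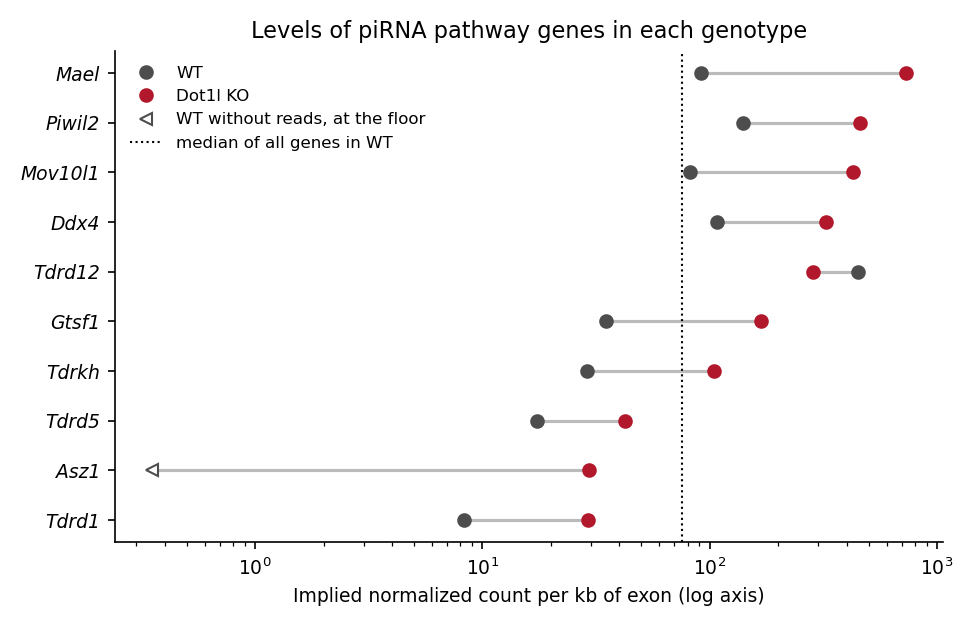
Implied normalized count per kb of exon (log axis) of each piRNA gene in WT (grey) and Dot1l KO (red); the open triangle sets Asz1 in WT at the floor of 1 normalized count per library and the dotted line is the median of all genes in WT, 75.6. In 9 genes the red point lies to the right of the grey one, and in Tdrd12 to the left, from 451 in WT to 284 in Dot1l KO.

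The rest of the pathway was followed with a list of 25 other genes, all of them tested. Of these, 11 rose and 0 fell, which is 44.0% higher beside 5.34% of all genes, and the median log2 fold change was 1.04. Earlier results of these data were known when this list was drawn up, so its share is no independent support. At an unadjusted p under 0.05, 13 were higher and 1 lower. The smallest p-values belonged to Fkbp6 (chromosome 5, 135291704 to 135350044), a co-chaperone that helps load Piwi proteins, and Stk31 (chromosome 6, 49395604 to 49469501), a Tudor-domain protein of spermatogonia. Fkbp6 stood at 37.4 normalized counts in WT and 874 in Dot1l KO, with 4.55 ± 0.36 and adjusted p = 1.40e-32 as listed in the authors' deposited table. For Stk31 the authors' deposited table has 2.05 ± 0.35 with adjusted p = 6.48e-07. Under Bonferroni adjustment 4 of the 25 were called.

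All 3 Piwi genes rose. Piwil1, which encodes the Piwi protein of meiotic and postmeiotic male germ cells, had 2.58 ± 0.46 with adjusted p = 1.78e-06 as listed in the authors' deposited table, at 39.0 normalized counts in WT and 233 in Dot1l KO. Piwil4, which encodes the nuclear Piwi protein MIWI2, went from 332 to 684 normalized counts, and the authors' deposited table gives 1.04 ± 0.27 with adjusted p = 0.00320. Piwil1, Piwil4 and the other genes of this list beyond Fkbp6 and Stk31 were named after their values were seen. Tdrd9, a helicase partner of MIWI2, and Tex15, which acts with it in DNA methylation of TEs, rose by 2.08 ± 0.49 and 1.87 ± 0.41 in the authors' deposited table, whereas Spocd1, of the same step, had 1.52 ± 0.71 with adjusted p = 0.236.

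The enzymes that shape piRNA ends did not move as one. Henmt1, the methyltransferase of the piRNA end, rose by 3.34 ± 0.93 with adjusted p = 0.00845 as listed in the authors' deposited table, from 5.16 to 52.2 normalized counts. Pnldc1, the trimming enzyme that works with Tdrkh, had -0.77 ± 0.30 with adjusted p = 0.105 as listed in the authors' deposited table, at 1650.3 normalized counts in WT and 967 in Dot1l KO. The mitochondrial nuclease gene Pld6 stood at -0.16 ± 0.40 with adjusted p = 0.914 as listed in the authors' deposited table. Gpat2, a mitochondrial partner of MILI, rose by 2.19 ± 0.38 with adjusted p = 7.97e-07 as listed in the authors' deposited table.

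Several cofactors of the pathway did not pass. Prmt5 and Wdr77, the complex that methylates arginines of Piwi proteins, had -0.28 ± 0.27 and -0.41 ± 0.42 in the authors' deposited table. Dnmt3l, the cofactor of DNA methylation, had the highest mean of the list, 19608 normalized counts, and -0.38 ± 0.38 with adjusted p = 0.715 as listed in the authors' deposited table. Mybl1, the transcription factor of piRNA precursors in meiosis, was at 0.02 ± 0.52 with adjusted p = 0.991 as listed in the authors' deposited table. The 10 genes and the 25 were then split by their mean per kb over all libraries at the median of all genes, 78.4 normalized counts per kb. Below it, 10 of 15 rose, against 9.09% of all genes below it. At or above it, 10 of 20 rose, against 1.55% of all genes there. The mean used for the split includes the Dot1l KO level, so a rise itself can move a gene to the upper side. Gtsf1, with 34.9 per kb in WT and 169 in Dot1l KO, is such a gene. The split therefore cannot show how the rise relates to the level in WT.

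**Figure D3:**
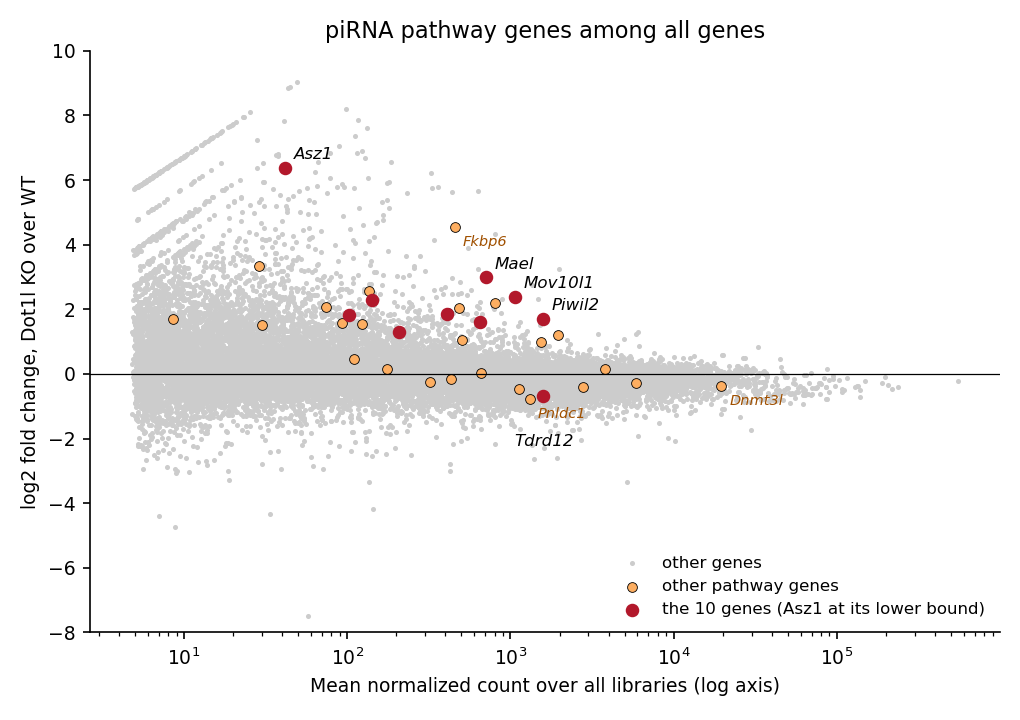
Mean normalized count over all libraries (horizontal log axis) against log2 fold change, Dot1l KO over WT (vertical axis), for the 10 piRNA genes (red, Asz1 at its lower bound), the 25 other pathway genes (orange) and all remaining genes (grey, at their fitted values). Mael, Mov10l1 and Piwil2 lie above most genes of similar mean, at 2.99, 2.39 and 1.71, and Tdrd12 lies below 0 beside Pnldc1.

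Other germ cell genes rose beside the piRNA genes. Of 18 markers of germ cells in and around meiosis, 11 rose and 0 fell, with a median log2 fold change of 1.89. That is 61.1% higher, beside 5.34% of all genes. These markers, too, were listed with earlier results of these data known, so the share is a description and no independent support. The smallest p-values were those of the RNA-binding protein gene Dazl, at 3.23 ± 0.40, and of Tex101, a germ cell surface protein, at 3.81 ± 0.48, in the authors' deposited table. The markers of primordial germ cells, the founders of the germ line, did not rise: 0 of 8 rose and 3 fell, with a median of -0.62. Of all genes, 5.34% rose and 1.25% fell. The 3 markers that fell were Ifitm3 at -3.34 ± 0.46, Dppa3 at -2.17 ± 0.38 and Nanos3 at -2.53 ± 0.75 in the authors' deposited table. Transcripts of all 8 were present in the WT stem cell cultures, from 241 normalized counts for Nanos3 to 9382 for Ifitm3. Their falls therefore do not show a loss of primordial germ cells. The summed level of these 8 markers was 18557 normalized counts in WT and 8082 in Dot1l KO, mostly through Ifitm3, and without it that of the other 7 was 9176 and 7157.

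Repressors known to keep germ cell genes silent in stem cells, among them the E2f6, Mga and Pcgf6 complex, the DNA methyltransferases and Setdb1, were 21 genes, of which 1 rose and 0 fell, with a median of -0.02; this share of 4.76% is near the 5.34% of all genes that rose. The one that rose was the methyltransferase gene Dnmt3a, at 0.85 ± 0.24 with adjusted p = 0.00822 as listed in the authors' deposited table. L3mbtl2 had the next smallest p of the list, with -0.60 ± 0.29 and adjusted p = 0.270 as listed in the authors' deposited table. The small RNA genes that work in somatic cells, such as Dicer1 and the Argonaute genes, gave 0 calls in 12 by the authors' DESeq2 test and 0 at an unadjusted p under 0.05, with a median of -0.04. With 5.34% of all genes called higher and 1.25% lower, 0 calls in 12 is near the share of all genes. The closest to the threshold in the authors' deposited table were Drosha at -0.46 ± 0.27 (adjusted p = 0.419) and Ago3 at 0.47 ± 0.29 (adjusted p = 0.455).

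Fibroblast markers were mixed. Of 17 listed, 11 were in the table, 5 rose and 0 fell, with a median of 0.70. The log2 fold change was positive for 6 of the 11 and negative for 5. Among all genes tested, 5.34% rose and 1.25% fell. At an unadjusted p under 0.05 the counts of these markers were 5 higher and 1 lower. Col1a2 at 4.03 ± 0.76 and Pdgfra at 2.18 ± 0.43 had the smallest p-values in the authors' deposited table. Their implied levels in WT were low, 4.73 and 41.9 normalized counts. Acta2, named after its value was seen, at -2.25 ± 0.84 with adjusted p = 0.0926 as listed in the authors' deposited table, was called lower when fold changes were centred within bins of mean count, where 4 markers were higher. The summed level of the 11 was 50757 normalized counts in WT and 36533 in Dot1l KO, set by the abundant Fn1 and Vim, which did not pass; without these 2 the sum was 2647 in WT and 3416 in Dot1l KO. The markers Postn, Lum, Dcn, S100a4, Fap and Twist2 have no row in the table used here. Whether the cultures held fibroblasts was not tested, nor was any part of such cells in the rise of the piRNA genes.

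**Figure D4:**
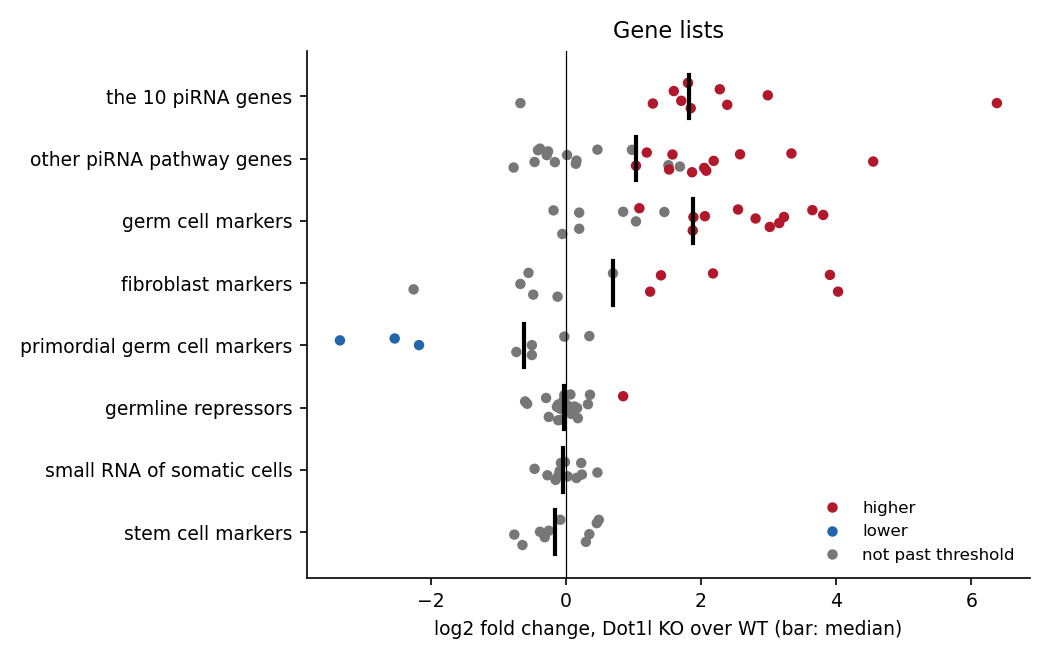
Log2 fold change, Dot1l KO over WT (horizontal axis), of every tested gene in 8 lists, 1 point per gene, with Asz1 at its lower bound; red passed as higher, blue as lower, grey did not pass, and the black bar is the median. The medians of the 10 piRNA genes and of the germ cell markers are 1.83 and 1.89, that of the primordial germ cell markers is -0.62, and the repressors lie around -0.02.

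Next to the piRNA genes, 3 neighbours rose and most did not pass the test. For each of the 10, the nearest tested gene to either side was taken, which for Tdrd12 and Tdrkh included 1 that lay inside the gene itself; of the 18 reported, 3 rose and 0 fell beside 5.34% of all genes that rose, with a median log2 fold change of 0.26. Nckap1l, a haematopoietic actin regulator 23.3 kb from Gtsf1, rose more than Gtsf1 itself, with 3.35 ± 0.41 and adjusted p = 1.28e-13 as listed in the authors' deposited table. Ildr2, 15.4 kb from Mael, had 3.06 ± 0.57 with adjusted p = 9.22e-06 as listed in the authors' deposited table, close to the 2.99 of Mael. Mlc1, an astrocyte membrane protein gene that starts 3.9 kb from Mov10l1 on the opposite strand, had 2.45 ± 0.64 with adjusted p = 0.00447 as listed in the authors' deposited table. These 3 neighbours all lie head to head with the piRNA gene, upstream of it and transcribed away from it. This feature was noticed after the values were seen. Of the 18 neighbours, 6 were head to head and 3 of these rose, against 0 of the other 12. Level was not matched in this contrast. Mlc1, Ildr2 and Nckap1l had mean counts of 29.22, 42.73 and 255, while those of the other 12 spanned 9.522 to 4956. Among all genes, 9.09% rose below the median mean per kb and 1.55% at or above it. Whether orientation or level set these 3 neighbours apart was not tested. The gene on the other side did not pass in any of these 3 cases, with Itga5 at -0.07 ± 0.28, Gpa33 at -0.28 ± 0.30 and Panx2 at -0.12 ± 0.68 in the authors' deposited table.

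Beside Piwil2, the authors' deposited table has Polr3d at -0.24 ± 0.32 and Slc39a14 at -0.22 ± 0.32. The neighbours of Asz1 lie far off: Cftr is 61.6 kb away, with 1.16 ± 1.60 in the authors' deposited table, and St7 is 107.9 kb away, with 0.59 ± 0.51. Neither neighbour of Ddx4, Gm3226 at -0.29 ± 0.31 and Slc38a9 at 0.48 ± 0.30 in the authors' deposited table, passed. The same held for Tdrd1, with Ccdc186 at -0.07 ± 0.36 and Vwa2 at 0.92 ± 0.50, and for Tor1aip2 beside Tdrd5, at 0.04 ± 0.27, in the authors' deposited table. Within Tdrkh, the intronic transcript Gm42463 had 1.11 ± 1.18, within Tdrd12 the pseudogene Gm18558 had 0.09 ± 0.77, and next to Tdrd12 Slc7a9 had 0.43 ± 0.82, in the authors' deposited table; none of the 3 passed.

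**Figure D5:**
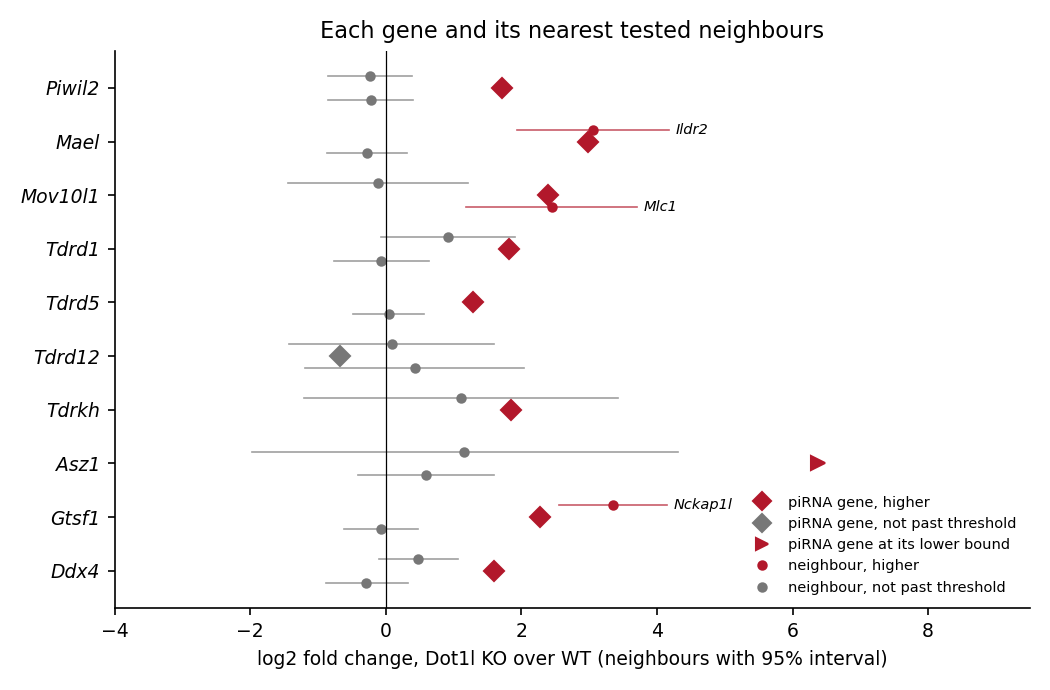
Log2 fold change, Dot1l KO over WT (horizontal axis), of each piRNA gene (diamond, or triangle for the lower bound of Asz1) and of its nearest tested neighbours (small points with 95% intervals); red passed as higher and grey did not pass. Of the 18 neighbours, Nckap1l, Ildr2 and Mlc1 are red, and most others lie around 0.

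The elements that the pathway is known to silence in the male germ line were read from the table of TE subfamilies, where 0.748% of 936 tested subfamilies passed. Young LINE-1 subfamilies did not pass: L1Md_A had 0.08 ± 0.57, L1Md_T -0.29 ± 0.53 and L1Md_Gf 0.61 ± 0.44 in the authors' deposited table. The intracisternal A particle IAPEz-int had -0.61 ± 0.26 with an unadjusted DESeq2 p = 0.0206 and adjusted p = 0.642 as listed in the authors' deposited table. Its 95% interval of -1.12 to -0.09 lay below 0, but a fall was not called. MMERVK10C-int had 0.24 ± 0.22 with adjusted p = 0.996 as listed in the authors' deposited table. For L1Md_A the 95% interval of -1.04 to 1.20 leaves room for a change of about either sign, so these data do not show that its level was the same. MERVL-int at 1.96 ± 0.38 and MT2_Mm at 1.64 ± 0.41 rose in the authors' deposited table, and their direction is the one from which the sign of the tables was read.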

How the data were processed

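RNA of 3 Dot1l KO and 3 WT samples was sequenced. Per the submitters' processing notes, the authors used HISAT2 2.1.0, featureCounts 2.0.0 and DESeq2 with mm10; the sources used here give no settings for strand, multi-mapping, filters or model. The deposited tables hold, per the file headers, a mean signal (counts divided by size factors), a log2 fold change with SE, the Wald score, which equalled fold change over SE, and the p-value with its adjustment, which a repeat of the Benjamini-Hochberg procedure matched. With no values per sample, planned fits of the samples could not be run and the authors' calls at an adjusted p under 0.05 were used. There were 7 genes without a p. Intervals (95%) and implied levels were computed with Python 3.11.15 and SciPy 1.17.1; the script for the alternative calls was tested on simulated data. Implied levels under 0.25 were taken as no reads.

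The genes and lists were chosen with earlier results of these data known. Genes named were the 10, the 2 smallest p-values of each other list, the nearest tested neighbours and 7 TE subfamilies; others were added after their values were seen. The values of 2 neighbouring genes are not reported here. Single TE copies have names without coordinates and were not used. GENCODE M21 exons were matched by symbol for 19562 of 19571 genes. Alternatives were a threshold of 0.01, a minimum log2 fold change of 1, Bonferroni adjustment, centring on the median or within 20 bins of mean count, and a mean count of at least 50.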

Additional observations from a re-analysis of the deposited data

How the results depend on the processing

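The count of 9 of the 10 piRNA genes became 5 under Bonferroni adjustment and stayed within 1.5 times under the other alternatives. Bonferroni adjustment also left 4 of the 25 other pathway genes, 2 fibroblast markers and 0 germline repressors; a log2 fold change of at least 1 left 0 germline repressors, and a mean count of at least 50 left 3 of 8 fibroblast markers. Of 59 alternative values for single piRNA genes, 54 kept direction and side of the threshold, 5 were no longer past it and 0 reversed. The 5 were Piwil2, Tdrd1, Tdrd5 and Ddx4 under Bonferroni adjustment and Tdrd5 at a threshold of 0.01. Asz1, with a mean of 41.66, had no value at a mean count of at least 50. The adjusted p of Tdrd12 ranged from 0.156 to 1.00. No paired analysis was possible because the tables give no value for any single sample, and neither the replicate block nor leaving out replicates was run. Library depths are unknown, so no counting error was computed.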
